A study of Mus musculus with 12 samples.

Results

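Gene expression in the colon epithelium of Tfeb flox/flox control animals was compared between Day 0, before dextran sodium sulfate (DSS), and Day 4 of the DSS experiment. The members are the genes with a value of at least 5 FPKM (fragment counts scaled by transcript length and library size) on either day, joined between the tables by Ensembl identifier. Of the 47632 genes listed, 4718 are members, 647 of them only through Day 4 and 1069 only through Day 0. Both Tfeb alleles are floxed in these animals, which carry no Cre, so they are controls with a modified but intact gene. The animals were C57/BL6 mice, 12 and 10 weeks old on Day 0, 12 weeks old on Day 4 and 10 weeks old on Day 11. The Day 4 animals drank DSS, given as 2.5% in the sample labels and at a slightly lower concentration in the methods. The labels give 2.5% for the Day 0 animals as well, worded as DSS on day0. That the Day 0 animals were untreated is taken from the publication. Tfeb ΔIEC animals of the same days, in which a Cre driven by the villin promoter removes Tfeb from intestinal epithelial cells, served for comparison, with the same treatment and the same ages on each day. Epithelial cells were released from the colon with EDTA, and full-length cDNA libraries were sequenced on a MiSeq. Cuffdiff combined the 2 animals of a group into 1 FPKM per gene, so no value has an error and no difference between the days has a replicate check or a test. All folds below compare single pooled values, and the numbers of reads behind them are unknown.

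DSS is a sulfated polysaccharide that, given in drinking water, injures the colon epithelium and exposes it to gut bacteria. The epithelium is made of absorptive colonocytes, which take up water and salt and burn short-chain fatty acids, of mucus-secreting goblet cells and hormone-secreting enteroendocrine cells, all renewed from dividing cells at the crypt base. Epithelial cells answer injury and microbes with secreted C-type lectins of the Reg3 family and other antimicrobial proteins, and wounded epithelium takes on a repair state with some genes of the fetal gut.

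Each FPKM was divided by the sum of its column and multiplied by 1000000, because the tables of the days were scaled separately. The result is called the rescaled value, and a difference is log2(Day 4 + 1) minus log2(Day 0 + 1) of the rescaled values. The column sum was 975316 on Day 0 and 1464717 on Day 4, so the fold of the deposited FPKM, Day 4 over Day 0, is 1.50 times that of the rescaled values. Directions were therefore also read on 5 further scales. These were the deposited FPKM, centring on the median of the genes that reached 5 FPKM on each day, the sum of protein-coding genes of at least 500 nt, quantile normalization, and removal of a smoothed trend with transcript length.

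The Day 4 column of Tfeb flox/flox stood apart from the others. Over the 5517 genes that were members in either genotype, its Spearman rank correlation was 0.68 with the Day 0 column of the same genotype and 0.57 and 0.53 with the Tfeb ΔIEC columns of Day 4 and Day 0. Among the other 3 columns the correlations were 0.76 to 0.83. These are descriptions across genes that share libraries. The Day 4 column was also nearly the same as the Day 11 column of Tfeb flox/flox, although the labels list different animals for these days. Of 11746 genes above 0 in both, 1679 had exactly the same deposited FPKM, against 0 of 10391 genes for Day 0 and Day 4. The same was seen in Tfeb ΔIEC, with 1310 of 12826 genes at the same value on Days 4 and 11. Whether the values below belong to Day 4 alone or also to Day 11 cannot be told apart.

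Transcript length also separated the days in the controls. Members with the shortest transcripts, 60 to 418 nt, had a median difference of 0.53, and members of 2212 to 2764 nt had -1.20. Over all 10 length classes, the medians in Tfeb ΔIEC stayed between -0.02 and 0.19. The length trend is given beside the results it moves, and its origin was not tested.

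**Figure D1:**
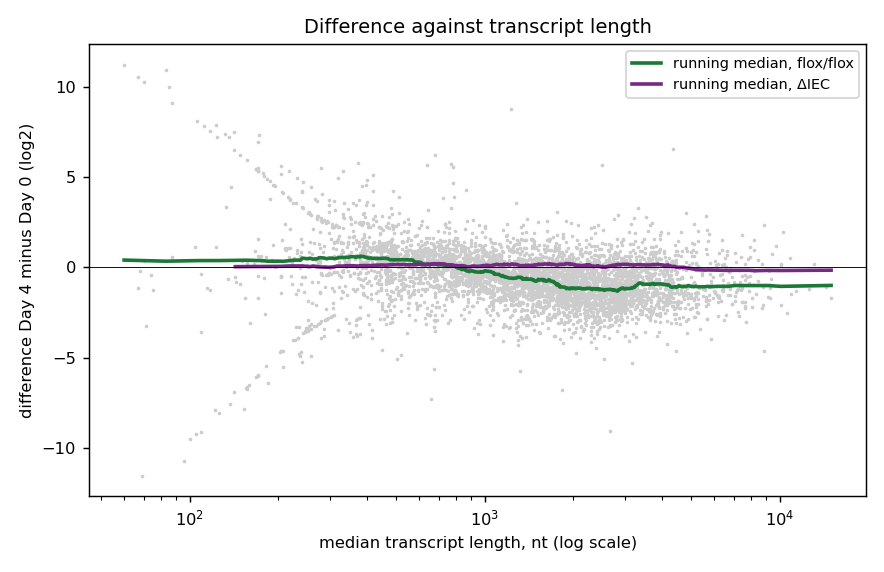
Difference between Day 4 and Day 0 (log2, vertical axis) against median transcript length (nt, log axis) for the members, as grey points, with the running medians of Tfeb flox/flox (green) and Tfeb ΔIEC (purple). The green line goes from above 0 for short genes to about -1.2 for genes of 2212 to 2764 nt, and the purple line stays near 0.

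Of the 4718 members, 218 were at least 4-fold higher on Day 4, 4.62% of those compared, and 661 were at least 4-fold lower, 14.0%. The median difference over all members was -0.54, which is the level against which single genes and lists are read. The higher genes made up 24.8% of these calls. Their share moved with the scale, to 44.1% on deposited FPKM (321 higher and 407 lower, with a median of -0.00), 40.0% after centring, 46.9% after quantile normalization and 17.9% with the sum of protein-coding genes. With the length trend subtracted it was 50.2%, from 292 higher genes, 6.20% of 4711, and 290 lower genes, 6.16%. Because a gene listed at 0 on one day enters only with 5 FPKM on the other, the filter alone makes it a call. This holds for 155 of the higher genes and 120 of the lower ones. Without genes at 0 on either day, 63 were higher and 541 lower, and among genes with 5 FPKM on each day 30 were higher and 199 lower. Most higher genes were short or not protein-coding: 149 of the 218 had a median transcript under 500 nt and 106 were processed pseudogenes. The numbers over all 4718 members were 721 and 834. Of the 661 lower genes, 480 were protein-coding with transcripts of at least 500 nt, near the share of all members, 3596 of 4718. Among the 218 higher genes 55 were. On all 6 scales, 171 genes were at least 4-fold higher and 226 at least 4-fold lower. Between 2-fold and 4-fold, 322 members were higher and 1098 lower, and 2419 lay within 2-fold. At the edge of the filter, 667 genes reached 4 to 5 FPKM on their higher day and were left out, and 441 reached 5 to 6 FPKM and were kept.

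**Figure D2:**
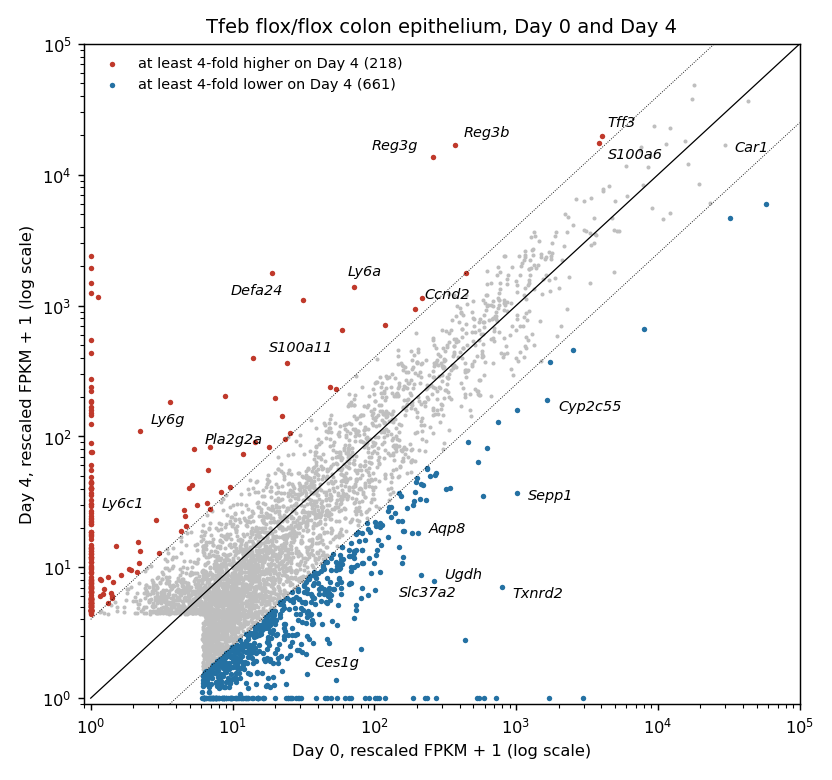
Rescaled FPKM + 1 of the 4718 members on Day 0 (horizontal, log axis) and Day 4 (vertical, log axis) in Tfeb flox/flox, 1 pooled value per gene and day. The solid line marks equal values and the dotted lines 4-fold, with 218 genes above in red, among them Reg3b and Reg3g far from the rest, and 661 genes below in blue.

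The genes that stood furthest out at high level were Reg3b and Reg3g, secreted lectins that bind and kill bacteria at the gut surface. Reg3b (ENSMUSG00000071356.7, chromosome 6 of mm10, 78370657 to 78373466) had a rescaled value of 368 on Day 0 and 16999 on Day 4, 46.2-fold higher. Reg3g (ENSMUSG00000030017.2, chromosome 6, 78466269 to 78468872) went from 260 to 13633, 52.4-fold higher. In Tfeb ΔIEC animals Reg3b had 438 and 10757 and Reg3g had 272 and 9723, so both genes were low on Day 0 and high on Day 4 in each genotype. The difference of Reg3b lay between 5.26 and 6.11 on the 6 scales, and that of Reg3g between 5.44 and 6.29. No 50-base sequence of their transcripts occurs in another gene of the GENCODE M21 annotation. Reg3d, Reg3a, Reg2 and Reg1 lie between them on chromosome 6 and were listed at 0 on both days. Reg4, a related lectin gene on chromosome 3, was lower, with 4895 on Day 0 and 1802 on Day 4.

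The starts of these co-varying neighbours are shown because the genes moved together. The sequences run 5′ to 3′ from 250 bases before to 50 bases after the RefSeq transcript start (build GRCm38.p6, the assembly of mm10), Reg3b on the plus strand at chr6:78370635-78370934 and Reg3g on the minus strand at chr6:78468825-78469124. Capitals mark matches, on either strand, to TATAAA, the letters of a TATA box, or to TTCNNNGAA, the letters of a STAT site.
Reg3b: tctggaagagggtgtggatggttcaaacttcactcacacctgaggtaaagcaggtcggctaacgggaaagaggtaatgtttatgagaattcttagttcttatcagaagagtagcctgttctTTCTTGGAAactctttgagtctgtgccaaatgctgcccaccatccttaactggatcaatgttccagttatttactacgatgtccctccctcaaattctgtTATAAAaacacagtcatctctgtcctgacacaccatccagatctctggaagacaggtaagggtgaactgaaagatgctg
Reg3g: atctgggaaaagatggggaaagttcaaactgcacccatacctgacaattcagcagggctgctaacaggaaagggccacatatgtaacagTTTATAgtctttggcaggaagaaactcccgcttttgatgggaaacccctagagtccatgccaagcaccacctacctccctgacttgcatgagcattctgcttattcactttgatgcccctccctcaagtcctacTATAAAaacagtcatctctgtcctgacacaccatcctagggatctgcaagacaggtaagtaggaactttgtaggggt
In a global alignment 214 of 300 bases are identical between the sequences of Reg3b and Reg3g. Against Reg3a, Reg3d, Reg1 and Reg2, the number is 180 to 194 for Reg3b and 184 to 196 for Reg3g. TATAAA lies at -29 to -24 in Reg3b and at -27 to -22 in Reg3g, and occurs in 13.6% of the 32851 promoters of the table. Reg3g holds a further TATAAA match on the reverse strand. TTCNNNGAA is found in Reg3b at -129 to -121 and not in Reg3g, and 8.30% of promoters hold it. GAAA followed after 2 further bases by GAAA, as in interferon response elements, is in neither window and in 3.44% of all promoters. These matches describe letters only.

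Genes of the Ly6 family, which encode small surface proteins anchored by a lipid, also stood out. Ly6a (chromosome 15, 74994877 to 74998031), the stem cell antigen Sca-1 and a marker of repairing, fetal-like gut epithelium, had 71.4 on Day 0 and 1388 on Day 4, 19.5-fold higher. Ly6c1, 75044018 to 75048830 on the same chromosome, was listed at 0 on Day 0 and had 23.9 on Day 4. Ly6g, 75155240 to 75159126, had 1.21 and 109, 89.9-fold higher from a low base. Ly6e, a more widely expressed member, had 172 and 307. Ly6c2, Ly6f and Ly6i, in the same stretch of chromosome 15, stayed under 1 on both days. Tfeb ΔIEC animals showed the same order, with Ly6a at 26.5 and 906, Ly6c1 at 0 and 24.7 and Ly6g at 4.21 and 121. Of the 50-base sequences of these genes, 99.6% of Ly6g, 81.0% of Ly6a and 67.2% of Ly6c1 occur in no other gene, so reads of Ly6a and Ly6c1 can be shared.

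Ly6g protein is the common surface marker of mouse neutrophils. Of the 15 genes in the neutrophil list, 13 were listed at 0 on both days, among them S100a8, S100a9, Csf3r, Cxcr2, Mpo and Elane. The other listed gene with a value, Cd177, was lower, with 57.0 on Day 0 and 5.30 on Day 4. The summed level of the list was 58.2 on Day 0 and 114 on Day 4, nearly all of it Cd177 on the first day and Ly6g on the second.

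The repair and fetal-like list had 18 members, of which 5 were at least 4-fold higher, against 4.62% of all members, and 0 lower, with a median difference of 0.88 against -0.54 for all members. The list median stayed between 0.61 and 1.44 on the 6 scales. However, 4 members (Ly6c1, Itgb6, Areg and Hbegf) passed the filter only through Day 4, which fixes their direction in part. The other 14 had a median of 0.18, with 3 at least 4-fold higher. Beside Ly6a and Ly6c1, the higher members were S100a11, S100a6 and Itgb6. S100a11, a calcium-binding protein of the cell cortex, had 23.4 and 365, 15.6-fold higher, and 58.9% of its 50-base sequences occur in no other gene. Its processed pseudogene Gm12854 showed 58.2 and 650, so reads may have been divided between them. S100a6, a related protein with no shared 50-base sequence, had 3837 and 17444, 4.55-fold higher and 1.90 to 2.77 on the 6 scales. Itgb6, the β6 integrin that activates TGF-β in wounds, had 0.180 and 6.97. Anxa2, a membrane-binding partner of S100a10, had 452 and 1027. The growth factors Areg and Hbegf had 2.97 and 6.79, and 2.70 and 6.17. Emp1 and Krt7 of the same list were lower on the main scale, at 35.8 and 17.4 and at 63.1 and 32.0. Emp1 was above 0 with the length trend subtracted, and 0 members of the list, Krt7 included, were below 0 on all 6 scales. Among other S100 genes of chromosome 3, S100a14 was 6.69-fold, S100a16 2.90-fold, S100a1 2.55-fold, S100a13 2.16-fold and S100a10 1.90-fold higher on Day 4.

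**Figure D3:**
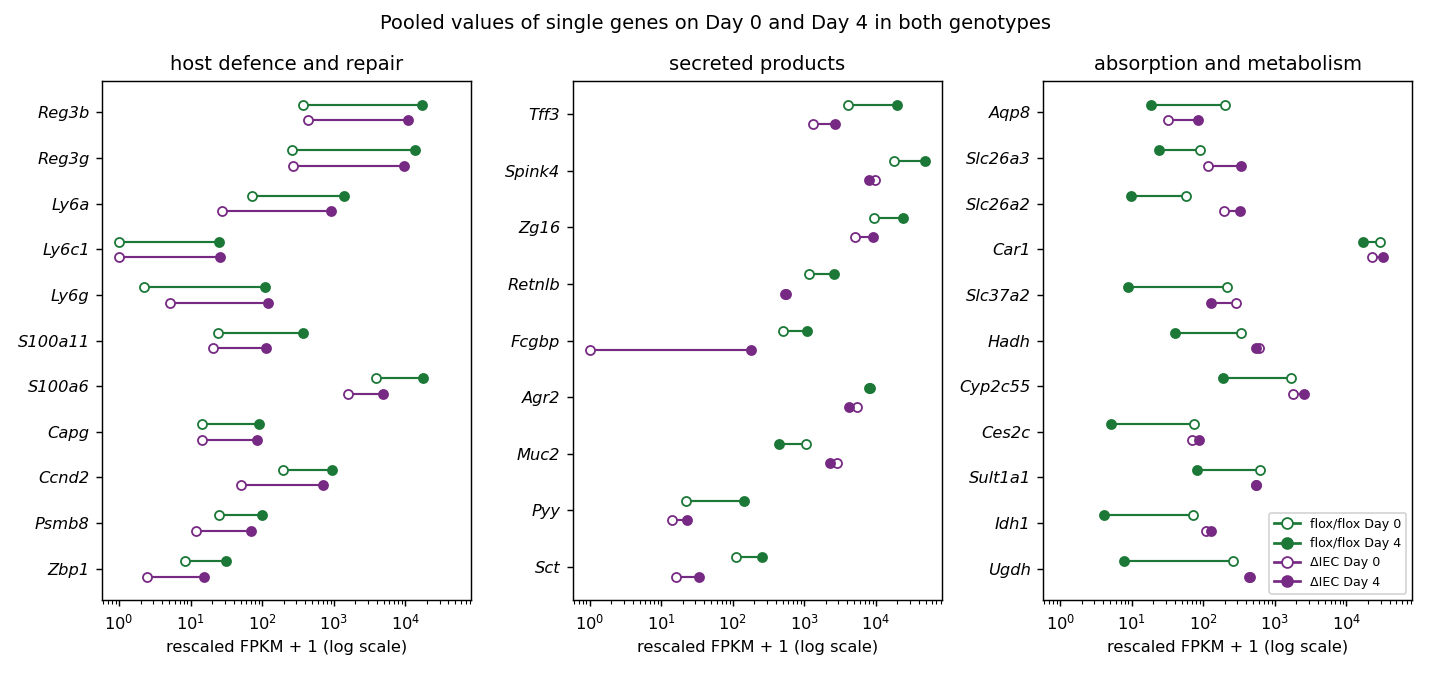
Rescaled FPKM + 1 (log axis) of single genes in 3 groups, with open circles for Day 0 and filled circles for Day 4, green for Tfeb flox/flox and purple for Tfeb ΔIEC, 1 pooled value per circle. In the left panel the filled circles lie to the right of the open ones in both genotypes, while in the right panel the green filled circles lie to the left and most purple pairs lie close together or reach to the right.

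Of the 18 members of the antimicrobial and acute phase list, 3 were at least 4-fold higher, against 4.62% of all members, and 0 lower. On deposited FPKM 5 were at least 4-fold higher and with the length trend subtracted 4. The median difference was 1.0 and lay between 0.73 and 1.59 on the 6 scales. The 13 members with 5 FPKM on each day had a median of 1.04, with 2 at least 4-fold higher. Beside Reg3b and Reg3g, Pla2g2a, encoding a secreted phospholipase, had 4.37 and 79.1, 18.1-fold higher, and passed the filter only through Day 4. Activity of the enzyme was not measured. Pla2g2a was lower on Day 4 in Tfeb ΔIEC, with 114 and 12.5. Smaller differences were seen for Ang4, an antimicrobial ribonuclease, with 839 and 2407, for Zg16, a lectin that binds gram-positive bacteria, with 9357 and 23755, and for Retnlb, with 1162 and 2599. Dmbt1, a mucosal scavenger receptor, had 858 and 1457. Pigr, which carries IgA into the lumen, was lower at 916 and 324.

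Goblet cell markers went both ways. The list of 17 members had a median difference of 0.09 that ran from -0.18 to 0.68 over the scales, with 1 member at least 4-fold higher and 1 lower on the main scale (4.62% and 14.0% of all members). On deposited FPKM 4 were higher and 0 lower, and with the length trend subtracted 2 and 0. Of its members, 13 lay above the median of all members, and the summed level of the list was 55994 on Day 0 and 130395 on Day 4. Tff3, the trefoil peptide of mucosal healing, had 4008 and 19635, 4.90-fold, and Spink4 had 17932 and 48727, 2.72-fold. Fcgbp, a large mucus protein with a long transcript, was also higher at 496 and 1078. The mucin Muc2 was lower at 1060 and 440, and Atoh1, the transcription factor that commits cells to secretory fates, had 20.5 and 4.27. Agr2 stayed close to its level at 7884 and 8388. Among 6 enteroendocrine members, Pyy, encoding peptide YY, had 21.4 and 143, 6.67-fold higher, and Sct, encoding secretin, had 112 and 254, while Gcg had 19.8 and 11.5 and Chga 13.9 and 12.1. Since these are bulk samples, a change in the number of cells of a type and a change in RNA per cell cannot be told apart.

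The Paneth cell list had the highest median among lists of at least 10 members, 3.90 over 11 members, of which 7 were at least 4-fold higher, against 4.62% of all members. This median rests in part on the filter, since 7 members passed it only through Day 4 and 4 of these were listed at 0 on Day 0. Of the 4 members with 5 FPKM on each day, 2 were at least 4-fold higher. Those named here are Pla2g2a and α defensins, peptides of small-intestinal Paneth cells. Defa24 had 30.4 and 1099 and Defa17 had 7.83 and 203, and Defa25 and Defa26 were listed at 0 on Day 0 with 44.2 and 54.1 on Day 4. Only 8.05% of the 50-base sequences of Defa17 and 25.2% of those of Defa25 occur in no other gene, so the split among copies is uncertain. Lyz1 had 2.02 and 2.10, and Mmp7, the protease that matures these peptides, was listed at 0 on both days. Defa24 in Tfeb ΔIEC had 0 and 3.87.

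Genes of antigen presentation did not share a direction. The MHC class I list had a median of -1.18 over 20 members, 0 at least 4-fold higher and 5 lower (4.62% and 14.0% of all members), but -0.17 with the length trend subtracted. On deposited FPKM 2 were at least 4-fold higher and 1 lower, and with the length trend subtracted 2 and 0. Its immunoproteasome subunits were higher, Psmb8 with 23.7 and 97.9 (4.13-fold in the rescaled value and just under the 4-fold limit with the added 1), Psmb10 with 71.3 and 191 and Psmb9 with 9.67 and 29.5. The class I heavy chains H2-K1 and H2-D1 had 1291 and 607, and 780 and 433. The class II list, MHC molecules that gut epithelium makes under interferon-γ, had 4 members with a median of -0.14. H2-Aa had 9.46 and 8.24 in Tfeb flox/flox but 1.56 and 28.9 in Tfeb ΔIEC animals, where the median of these 4 genes was 3.31. Of 13 interferon-inducible members 0 passed 4-fold in either direction on the main scale, and 3 were at least 4-fold higher on deposited FPKM and 2 with the length trend subtracted. Zbp1, a nucleic acid sensor, had 7.31 and 30.6, Bst2 had 2.45 and 12.7 and Isg15 had 0.831 and 5.84, while Irf7 had 37.2 and 10.4 and Irgm1 had 9.30 and 1.75. Genes of inflammatory cell death differed in direction. The adaptor Pycard had 1052 and 2409 and the pore former Gsdmd 15.7 and 34.0, whereas the protease Casp1 had 32.7 and 10.5 and the sensor Nlrp6 18.6 and 5.84. The list of apoptosis and inflammatory cell death had 17 members with a median of -0.40, from -0.68 to 0.65 over the scales. Its 2 members at least 2-fold higher and 7 at least 2-fold lower are near the share of all members, 540 and 1759 of 4718.

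Among 14 members of the colonocyte marker list, 10 had a negative difference and 4 a positive one, with a median of -0.81 (-1.08 to -0.22 over the scales). The higher ones were Hoxb13, Guca2a with 12248 and 22700, Guca2b with 24.2 and 43.3 and Saa1 with 210 and 309. In the water and ion transport list, 4 of 18 members were at least 4-fold lower, against 14.0% of all members, and 0 higher. Its median of -1.43 stayed below 0 on all scales, between -1.78 and -0.46, but the count was 1 both on deposited FPKM and with the length trend subtracted. Of the 4, 2 had passed the filter only through Day 0, and 2 of the 13 members with 5 FPKM on each day were lower. Aqp8, the water channel of surface colonocytes, had 203 on Day 0 and 17.3 on Day 4, 11.7-fold lower. Slc26a3, the chloride-bicarbonate exchanger whose loss causes chloride diarrhea, had 88.0 and 22.7, and Slc26a2, a sulfate transporter, 56.3 and 8.89. Slc16a1, the transporter of butyrate and lactate, had 8.04 and 0.865, and Kcnq1, a potassium channel subunit, 16.8 and 2.42. Slc37a2, a sugar-phosphate transporter and colonocyte marker, had 212 and 7.74, 27.4-fold lower. Car1, the most abundant carbonic anhydrase, was lower by less, with 29730 and 16894. Atp1b1, a subunit of the sodium pump, had 205 and 187. In Tfeb ΔIEC animals Aqp8 had 31.0 and 84.5 and Slc26a3 had 115 and 330, so both were higher on Day 4 there.

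Enzymes of fuel oxidation and detoxification were mostly lower. In fatty acid oxidation and ketogenesis, 10 of 27 members were at least 4-fold lower, against 14.0% of all members, and 0 higher, with a median of -1.61 (-1.91 to -0.90 over the scales). On deposited FPKM 5 members were at least 4-fold lower, and with the length trend subtracted 1, against 6.16% of all genes on that scale. Of the 10, 4 had passed the filter only through Day 0, Ppara among them, and 6 of the 20 members with 5 FPKM on each day were lower. Hadh, a dehydrogenase of β-oxidation, had 339 and 39.7, 8.55-fold lower, and Ppara, the transcription factor that drives this pathway, 5.87 and 0.120. Etfb, an electron carrier subunit with a short transcript, was on the other side at 682 and 996. In the citric acid cycle, 9 of 24 members were at least 4-fold lower, with a median of -1.89 (-2.23 to -0.87), and 6 on deposited FPKM and 3 with the length trend subtracted. Of the 9, 4 had passed the filter only through Day 0, and the members with 5 FPKM on each day had a median of -1.19. Idh1 had 70.7 and 3.10, Dld 36.2 and 1.62 and Cs 71.1 and 12.3, while Sdhb had 547 and 541 and Suclg1 334 and 299.

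In xenobiotic metabolism, 16 of 31 members were at least 4-fold lower, against 14.0% of all members, and 0 higher, with a median of -2.08. The median stayed between -2.42 and -0.89 on the 6 scales, and 11 members were at least 4-fold lower on deposited FPKM, 6 with the length trend subtracted (6.16% of all genes) and 5 on every scale. Of the 16, 4 had passed the filter only through Day 0, and 12 of the 24 members with 5 FPKM on each day were lower. Cyp2c55, a colonic cytochrome P450, had 1655 and 189, 8.76-fold lower. The carboxylesterases Ces1g and Ces2c had 32.7 and 0.532, and 73.4 and 4.12. Ugt1a7c, a glucuronosyltransferase that shares exons with its neighbours, had 155 and 9.81, and Sult1a1, a sulfotransferase, 624 and 80.4. Ugdh, which makes the glucuronic acid donor for glucuronidation, had 261 and 6.88, 37.9-fold lower. Adh1 and Gstp1 did not follow, with 295 and 362 and with 362 and 426. The medians of the same genes in Tfeb ΔIEC were 0.25 for fatty acid oxidation, 0.08 for the citric acid cycle and 0.32 for xenobiotic metabolism. Cyp2c55 there had 1794 and 2527 and Ugdh 432 and 448.

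Mitochondrially encoded and nuclear-encoded parts of respiration differed from each other. The 13 mitochondrially encoded mRNAs had a median of -1.25, with mt-Co1 at 23150 and 6129 and mt-Nd5 at 1499 and 379. Mitochondrially encoded genes took 27.6% of the column sum on Day 0 and 10.7% on Day 4. The 79 nuclear-encoded members of the respiratory complexes, whose median transcript is 755 nt, had a median of 0.52, with 0 at least 4-fold higher and 5 lower, against 4.62% and 14.0% of all members. On deposited FPKM 2 were higher and 3 lower, and with the length trend subtracted 5 were higher and 1 lower. The 82 cytosolic ribosomal protein genes, 773 nt at the median, had 0.29 (0.02 to 0.88 over the scales), with 1 gene at least 4-fold higher, which passed the filter only through Day 4, and 0 lower. On deposited FPKM 5 were at least 4-fold higher.

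**Figure D4:**
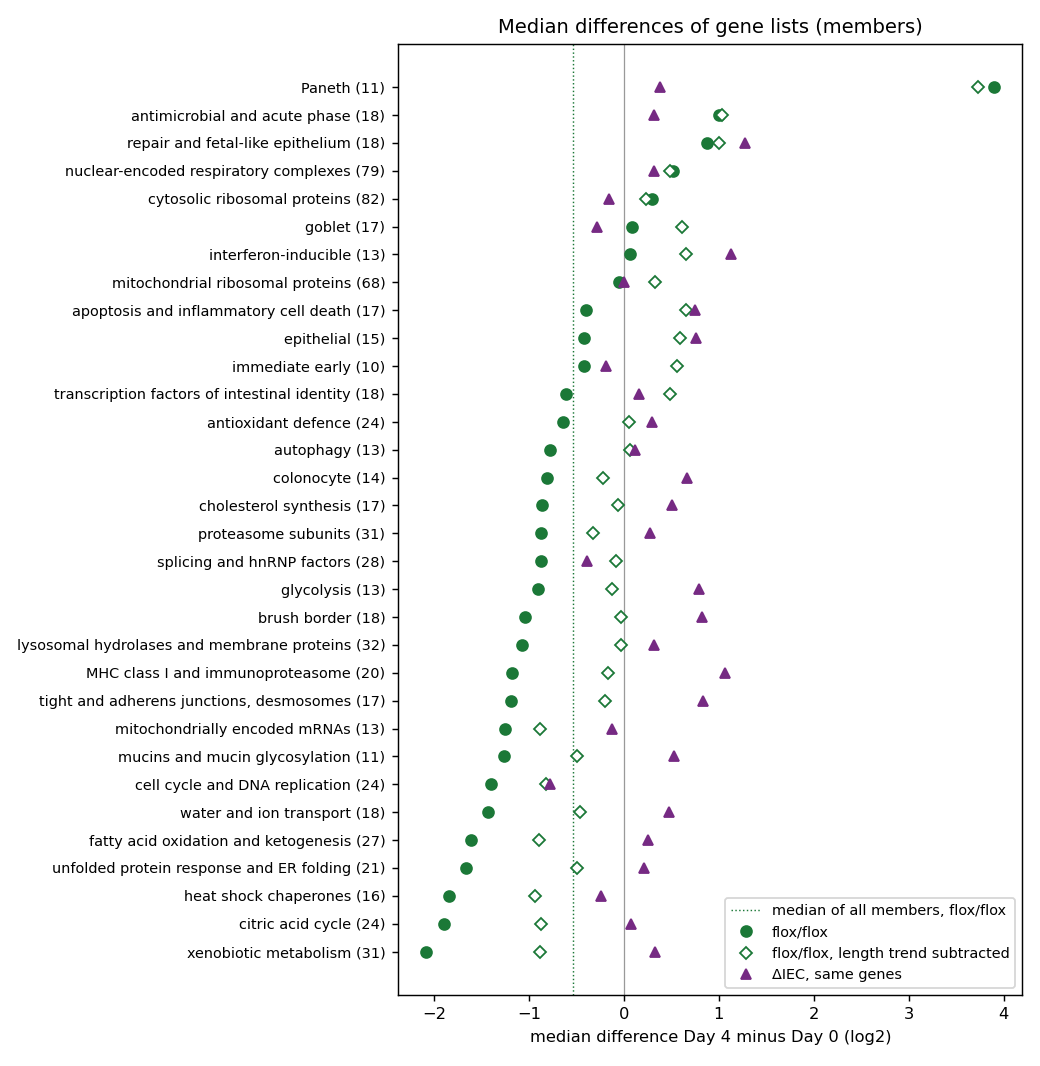
Median difference between Day 4 and Day 0 (log2) of the gene lists with at least 10 members (number in brackets), as filled circles for Tfeb flox/flox, open diamonds after subtraction of the length trend and triangles for the same genes in Tfeb ΔIEC. The circles run from -2.08 for xenobiotic metabolism to 3.90 for the Paneth list, the dotted line marks -0.54 for all members, and most diamonds in the lower rows lie closer to 0.

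Of 24 members of the cell cycle list, 17 had a negative difference on every scale, beside 1924 of 4711 members. Of the 24, 9 had passed the filter only through Day 0. On the main scale 10 were at least 4-fold lower and 1 higher, with a median of -1.40 (-1.73 to -0.76 over the scales). The lower count was 5 on deposited FPKM and 2 with the length trend subtracted, and 8 of the 10 had passed the filter only through Day 0. For comparison, 14.0% of all members were lower on the main scale. Cdk4 had 68.0 and 6.64, the microtubule regulator Stmn1 16.0 and 0.923, the replication helicase subunit Mcm6 10.8 and 1.11 and Ccna2 20.7 and 3.20. The median of these genes in Tfeb ΔIEC was -0.78, with Ccna2 at 20.2 and 6.96. The higher member was Ccnd2, encoding cyclin D2, which drives entry into the cycle, with 192 and 949 in Tfeb flox/flox, 4.93-fold higher, and 49.5 and 707 in Tfeb ΔIEC. Ccnd1 had 11 and 10.4. Markers of crypt stem cells were low throughout. The crypt stem and Wnt target list had 5 members, 4 with a negative difference and 1 with a positive one. Its median of -1.33 came to -0.24 with the length trend subtracted, and 3 members had passed the filter only through Day 0. Smoc2 had 6.30 and 0.736, Lgr5 2.04 and 0.0854 and Axin2, a Wnt target, 2.00 and 0.165, the last 2 being under the member limit.

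In the heat shock list 8 of 16 members were at least 4-fold lower, against 14.0% of all members, and 0 higher, with a median of -1.84 (-2.25 to -0.93), including Cct4 with 57.2 and 6.01 and Hspd1 with 32.4 and 3.20. On deposited FPKM 4 were at least 4-fold lower and with the length trend subtracted 0, and 4 of the 8 had passed the filter only through Day 0. In the unfolded protein response list 7 of 21 were at least 4-fold lower (2 on deposited FPKM and 1 with the length trend subtracted, and 2 of the 7 through Day 0 only), with a median of -1.67, and of -0.49 with the length trend subtracted. Pdia4 had 28.7 and 1.32, Pdia3 321 and 38.7 and Hspa5, the ER chaperone BiP, 90.5 and 27.1. The antioxidant defence list of 24 members had a median of -0.64, from -0.92 to 0.05 over the scales. At least 2-fold higher were 3 and lower 7, beside 540 and 1759 of the 4718 members, and thioredoxin, Txn1, had 1267 and 3346.

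The 32 lysosomal members had a median of -1.08, 7 at least 4-fold lower, against 14.0% of all members, and 0 higher. Of the 7, 5 had passed the filter only through Day 0, and the 20 members with 5 FPKM on each day had a median of -0.53 with 2 lower. With the length trend subtracted the median was -0.03 and 1 member was at least 4-fold lower. Ctsd had 75.7 and 17.6 and Ctsb 32.4 and 9.06, whereas Lamp1 had 9.65 and 11.8. Similarly the brush border list was at -1.04 (-0.03 with the length trend subtracted) and the junction list at -1.19 (-0.20). Vil1, the actin bundler of microvilli, had 87.6 and 20.9 and Cldn15, a channel-forming claudin, 102 and 11.5. For 13 autophagy members the median was -0.77, between -1.09 and 0.06 over the scales, with Sqstm1, the p62 receptor, at 71.5 and 12.0. Tfeb itself was at 0.901 FPKM on Day 0 and 1.08 on Day 4, under the member limit on both days. Its rescaled values were 0.924 and 0.738, so its direction depended on the scale. In Tfeb ΔIEC it was at 0.185 FPKM on Day 0 and listed at 0 on Day 4.

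Epithelial markers were present on both days, and all 15 of the list were members. Epcam had 1137 and 821, Krt8 1012 and 1273, Krt19 3094 and 3723 and Lgals4 8526 and 11474. The list median, -0.42, turned to 0.59 with the length trend subtracted. The colon identity factor Hoxb13 had 13.1 and 39.1 and Klf5 39.0 and 95.3, and Cdx2 had 15.2 and 5.89. Of the macrophage, stromal, endothelial and tuft cell lists, 0 genes reached 5 FPKM, and the summed levels of each list were at most 10.3 on Day 0 and 4.65 on Day 4. Among lymphocyte genes, Igkc had 160 and 67.5 and Ccl5 5.91 and 27, while Cd3g had 7.27 and 0.483 and Cd3d and Cd4 were listed at 0. Hemoglobin was lower on Day 4, with Hbb-bs at 46.6 and 5.91. The part of these cells in the differences was not tested.

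Genes often used for normalization did not hold one level. Among 14 members of that list, Hprt had 80.4 and 5.89, 13.7-fold lower, and Eef1a1 2514 and 455, while Ppia had 683 and 805, Gapdh 116 and 90.2 and Actb 4927 and 3803. Hprt in Tfeb ΔIEC animals had 146 and 169.

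The 12 protein-coding genes with the largest positive difference, among transcripts of at least 500 nt and values above 0 on both days, were Nbr1, Rpl24, Reg3g, Fam134a, Ly6g, Reg3b, Ly6a, S100a11, Usp50, Zrsr2, Zfyve19 and Ece1. Nbr1, an autophagy receptor, had 17.9 and 1776, and its annotation holds a transcript of 63 nt beside one of 4789 nt. Fam134a had 2.65 and 181 and has a transcript of 129 nt. Short transcripts are also annotated for Zfyve19 and Ece1 (172 nt each) and for lower genes such as Adk (147 nt). Their part in the differences was not tested. Rpl24 had 0.0192 and 75.3, with 48.2% of its 50-base sequences in no other gene. Usp50 had 5.96 and 82.3, Zfyve19 4.20 and 41.9, Ece1 3.96 and 39.1 and Zrsr2 0.508 and 13.5. In Tfeb ΔIEC animals the differences of Nbr1, Rpl24, Fam134a, Zrsr2, Zfyve19 and Ece1 lay between -1.21 and 0.36, unlike those of the Reg3 and Ly6 genes. Among members listed at 0 on Day 0, the highest on Day 4 with at least 500 nt were the antisense gene Gm17590 with 430, Ly6c1 with 23.9, Smn1 with 13.3, Snhg6 with 8.16, Dusp7 with 5.62 and Gm21814 with 4.87.

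The 12 with the largest negative difference were Gm10800, Txnrd2, Erlin1, Gm10801, Ugdh, Sepp1, Slc37a2, Ces1g, Cers6, Idh1, Eef2 and Adk. Gm10800 and Gm10801, predicted genes side by side on chromosome 2, had 436 and 1.76, and 79.4 and 1.39. Txnrd2, mitochondrial thioredoxin reductase, had 792 and 6.02, 132-fold lower, and 253 and 8.77 in Tfeb ΔIEC. Sepp1, selenoprotein P, the plasma carrier of selenium, had 1011 and 36.2, but 1683 and 5351 in Tfeb ΔIEC. Erlin1 had 52.9 and 0.372, the ceramide synthase Cers6 22.9 and 0.271, adenosine kinase Adk 73.9 and 3.73 and the elongation factor Eef2 582 and 34.1. Of the members with transcripts of at least 500 nt listed at 0 on Day 4, Txnrd3 had the highest Day 0 value with 526, followed by Eif3s6-ps2 with 53.3, Gm10717 with 48.2, Gm20056 with 28.0, Kif14 with 23.8 and Gm4462 with 18.9. A list of 22 genes named in the publication held 14 members. The α defensins Defa21, Defa25 and Defa26 were at least 4-fold higher, but all 3 were listed at 0 on Day 0. At least 4-fold lower were 7 genes, among them M6pr, Ctsc and Xbp1, of which 4 had passed the filter only through Day 0. The lower count was 3 on deposited FPKM and 1 with the length trend subtracted. Of all members 4.62% were higher and 14.0% lower. This list was drawn up with these libraries in view.

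The same change in Tfeb ΔIEC animals, which share no animals with the controls, involved fewer calls. Of 4602 genes with at least 5 FPKM on either day there, 153 were at least 4-fold higher on Day 4 (3.32%) and 126 lower (2.74%), with a median of 0.11. Higher in both genotypes were 22 genes, 10.1% of the higher genes of Tfeb flox/flox and 14.4% of those of Tfeb ΔIEC. Of these, 11 were protein-coding: Reg3g, Ly6g, Reg3b, Ly6c1, Ly6a, S100a11, Capg, S100a14, Swt1, Ccnd2 and Vimp. Several of the 22, among them Ly6c1 and pseudogenes such as Gm3788, were listed at 0 on Day 0 in both genotypes. For those the filter alone made both calls. Ly6g and Swt1 passed the filter only through Day 4 in both genotypes. Capg, an actin-capping protein, had 13.4 and 90.2 in Tfeb flox/flox and 13.4 and 84.3 in Tfeb ΔIEC. The long noncoding RNA AW112010, known from inflamed tissue, had 19.0 and 195, and 9.77 and 110. Lower in both were 16 genes, 2.42% and 12.7% of the respective lower genes. They included Txnrd2, Rgcc, Cnn3, Trf, Acadsb and Smoc2. Trf, encoding transferrin, had 8.94 and 8.27 on Day 0 and was listed at 0 on Day 4 in both genotypes. Pseudogenes such as Gm15452 and Gm12013 were also at 0 on Day 4 in both, so the filter alone made these calls. Of 522 lower genes of the controls that were also members in Tfeb ΔIEC, 428 lay within 2-fold there. Of the 218 higher genes of the controls, 73 were members in Tfeb ΔIEC, and 20 lay within 2-fold there. The share within 2-fold over all genes that were members in both was not computed. Opposite calls were about as frequent as shared ones: 19 genes were at least 4-fold higher in the controls and lower in Tfeb ΔIEC, and 16 the other way. Across the 3803 genes that were members in both, Pearson's r between the differences was 0.12 and Spearman's rho 0.15. These describe genes, which are not independent replicates, and no test of a difference between the genotypes is possible with 1 pooled value per group.

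**Figure D5:**
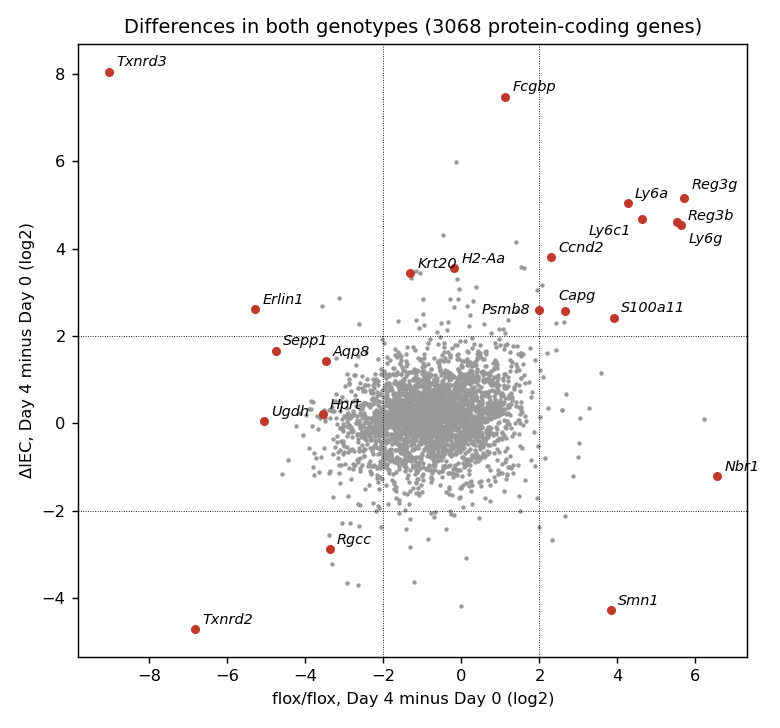
Difference between Day 4 and Day 0 (log2) in Tfeb flox/flox (horizontal) and Tfeb ΔIEC (vertical) for 3068 protein-coding genes with transcripts of at least 500 nt that were members in both genotypes, with dotted lines at 4-fold and a few genes in red with their names. Reg3b, Reg3g, Ly6a, Ly6c1 and Ly6g lie together at the upper right, away from the main cloud.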

How the data were processed

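The data are RNA-seq values of colonic epithelial cells from 6 groups of 2 animals each, of which Tfeb flox/flox on Day 0 and Day 4 are compared here and the other groups serve for reference. Groups came from the sample labels, which give the genotype as WT or KO. The names Tfeb flox/flox and Tfeb ΔIEC for these are taken from the publication. The authors mapped paired-end reads with TopHat2 2.0.14 and Bowtie to mm10 and ran Cuffdiff 2.1.1 on the genotypes of each day. Each deposited table holds 1 FPKM per gene and genotype, scaled within that day only. The tables also hold the authors' fold changes, p-values and q-values between genotypes, which were not used. Cuffdiff 2.1.1 gives no values per animal here, so no test was run, and the depth is unknown. In genes with 1 transcript, 66.8% (Day 0) and 42.7% (Day 4) of low values lay within 0.1 of a whole multiple of a common step, too few to recover whole reads.

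From the FPKM, rescaled values were computed with a pseudocount of 1 (pandas 2.3.3 and numpy 2.4.6 on Python 3.11.15, correlations with scipy 1.17.1, plots with matplotlib 3.10.9). The running median over transcript length used 301 genes. Lengths, biotypes and coordinates (counted from 1) are those of GENCODE M21, with lengths as medians over basic transcripts, and 4711 of the 4718 members matched. Promoters are from RefSeq, aligned with biopython 1.88, and the motifs were chosen after the values were seen. Named genes are the 12 members with the largest difference in each direction among protein-coding genes of at least 500 nt with values above 0 on both days, the 6 highest listed at 0 on a day, genes named in the study's text, and members of a list where it is described. S100 and Ly6 genes, genes of the Reg cluster outside the lists and genes shared by both genotypes were added after their values were seen. Members and lists were chosen with earlier results of these data known. The alternatives were 4 scales, 2 pseudocounts, 3 filters on low values, leaving out genes at 0, the length trend, the Day 11 value, folds of 2 and 8 and protein-coding genes only. The computations were tested on simulated data with known folds and a length trend.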

Additional observations from a re-analysis of the deposited data

Results flagged for a closer look

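Protein-coding members with transcripts of at least 500 nt were looked at again where the difference between Day 4 and Day 0 passed 4-fold in opposite directions in the 2 genotypes. Each direction rests on 1 pooled value per day, and the difference between the genotypes was not tested. The values follow with Tfeb flox/flox first. Txnrd3, a thioredoxin reductase, had -9.04 and 8.04. Erlin1 had -5.30 and 2.62, and the protocadherin Pcdh1 -3.57 and 2.68. Anapc5, a subunit of the anaphase-promoting complex, had -3.13 and 2.86, and Tjp1, the tight junction protein ZO-1, -2.63 and 2.27. With the length trend subtracted, the control differences of Anapc5 and Tjp1 were -1.95 and -1.57, short of 4-fold. In the other direction, Ppp1r35 had 2.31 and -2.66, Wbp11 2.67 and -2.12, and Smn1, which assembles spliceosomal particles, 3.84 and -4.27. Smn1 was listed at 0 on Day 0 in the controls and on Day 4 in Tfeb ΔIEC, so the filter alone made both calls. Txnrd3 was listed at 0 on Day 4 in the controls and Ppp1r35 on Day 4 in Tfeb ΔIEC. Wbp11 had only 0.322 FPKM on Day 0 in the controls.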

How the results depend on the processing

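The counts of genes at least 4-fold higher (218) and lower (661) moved by more than 1.5 times under several settings. The lower count was 407 on deposited FPKM, 408 after centring, 1002 with the sum of protein-coding genes and 356 after quantile normalization. With a pseudocount of 5 the counts were 81 and 215. Of the higher genes, 137 remained with a filter of 10 FPKM on either day. With 5 FPKM on both days 30 were higher and 199 lower, and 63 were higher when genes at 0 were left out. Subtracting the length trend gave 290 lower. At 2-fold there were 540 and 1759, at 8-fold 99 and 186, and among protein-coding genes of at least 500 nt 55 were higher. Genes lower in both genotypes (16) numbered 3 with a pseudocount of 5 and 5 with a filter of 10 FPKM, alternatives chosen after seeing the data. Stricter filters and folds keep fewer genes by construction. On deposited FPKM each fold, Day 4 over Day 0, is 1.50 times that of the rescaled values, and centring shifts all genes the same way. By arithmetic, both settings keep every higher call and can only lose lower ones. The cause of the remaining moves was not tested. All 218 higher and 407 of the 661 lower genes were called again on deposited FPKM, and 173 and 260 with the length trend subtracted. Of the lists with at least 5 members, 19 had a median of at least 2-fold in either direction. These kept their sign in all 228 recomputed medians, which is no measure of stability. The lists were chosen for a large median, several settings shift all genes alike, and the Day 11 column is nearly that of Day 4. Of the 228 medians 19 moved beyond their interval, 8 of them with the length trend subtracted. There the brush border and lysosomal lists came to -0.03. No paired analysis was possible because each genotype and day has 1 pooled value, and for the same reason no animal could be left out. Unknown depth limits the low values.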
